A study of Homo sapiens with 2 samples.

Results

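The genes described here build and regulate the contacts between epithelial cells, or mark the loss of those contacts. They are 37 of the 19775 genes measured, chosen by name: for each, the brightest probe set by mean level was taken among those annotated to that gene alone. The arrays came from HCT15 cells, a long-established line of human colorectal adenocarcinoma. In 1 sample the cells had been given Cas9 and an ARID3B guide RNA and carry the genotype label of an ARID3B knockout. In the other sample the cells are labelled as control. Whether the edited cells were 1 clone or a pool, what the control cells received and the time after editing are not stated in these sources.

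ARID3B encodes a DNA-binding protein with an AT-rich interaction domain. Its transcript read 6.09 on the array of the edited cells and 5.12 on the control array, so it was higher by 0.97 in the sample labelled as knockout. That goes against the direction a lost transcript would give, although an edit need not lower the RNA and the position of the only probe set relative to the edit is not known. The sample is therefore called knockout-labelled, and every direction below rests on the labels. Each group is 1 array, so differences have no replicate check or test, and precision is limited by this number.

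Levels are RMA log2 values, and a difference is the knockout-labelled minus the control value. Where a pair of levels is given, the knockout-labelled value comes first and the control second. A gene was compared when its higher value reached 4.59, the median over probe sets other than controls, here called the floor. Of the 37 genes 31 were compared, as were 12841 of all 19775. The spread given beside a difference is the scaled median absolute deviation of differences among genes of similar mean level, which ran from 0.255 to 0.437 and holds technical and biological variation together. The poly-A spike-ins, 24 probe sets of RNA normally added before labelling, were lower by 1.19 on the knockout-labelled array. Scaling on them would raise every difference by that amount. The hybridisation controls differed by -0.14. The difference between 3-prime and 5-prime probe sets was -0.03 and -0.02 for GAPDH and 0.67 and 0.73 for ACTB on the knockout-labelled and control arrays.

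Epithelial sheets are sealed by tight junctions, in which claudins and occludin form the barrier and ZO proteins tie it to actin. Adherens junctions built on E-cadherin and desmosomes anchored to keratin filaments hold the cells together. In epithelial-mesenchymal transition (EMT) the factors of the SNAI, ZEB and TWIST families repress these genes and cells gain vimentin and N-cadherin. GRHL, OVOL and ESRP proteins act on the epithelial side, and intestinal carcinoma cells can hold intermediate states.

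The epithelial genes did not shift together in either direction, and their differences were of both signs. CLDN1, ALCAM, MARVELD2, GRHL2 and TJP1 were lower and ESRP1 and SPINT1 higher by more than 1.5-fold. Over all 12841 compared genes, 1349 were lower and 749 higher by that much. A difference under 0.25 in size was found in 14 of 27, near the background, as 6554 of all 12841 had one. Of 27 compared epithelial genes 17 were above 0 (52.9% of all compared genes were) and 10 below (45.1% of all), with a median difference of 0.08 against 0.04 for all compared genes. A gene is called past 2-fold when its log2 difference reaches 1 in size, also where the dimmer value is under the floor. Among the 31 compared genes, 1 was past 2-fold higher (3.23%, against 1.05% of all compared genes), the actin-binding TAGLN. Another 2 were past 2-fold lower (6.45%, against 3.79% of all), the claudin CLDN1 and the calcium-binding S100A4. The knockout-labelled value of CLDN1 was under the floor, as in 147 of the 487 such genes over all, and raised to the floor it no longer reaches 2-fold. Counts this small are near the background and say nothing particular about the set. A difference beyond its spread was found in 13 of 31 (41.9%, against 34.8% of all) and beyond 2 spreads in 5 of 31 (16.1%, against 10.6%), namely TAGLN, CLDN1, S100A4, TJP1 and ALCAM. After scaling on the spike-ins 22 of 31 were past 2-fold higher, as were 9137 of all 12841 compared genes. Of the 31, 0 were past 2-fold lower, against 44 of all, with 30 above 0 and S100A4 alone below. Bulk RNA was measured, so a lower share of expressing cells and less RNA per cell cannot be told apart. On ribosomal protein genes, 14 were above 0 and 17 below, where 18 and 13 were found without it.

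**Figure D1:**
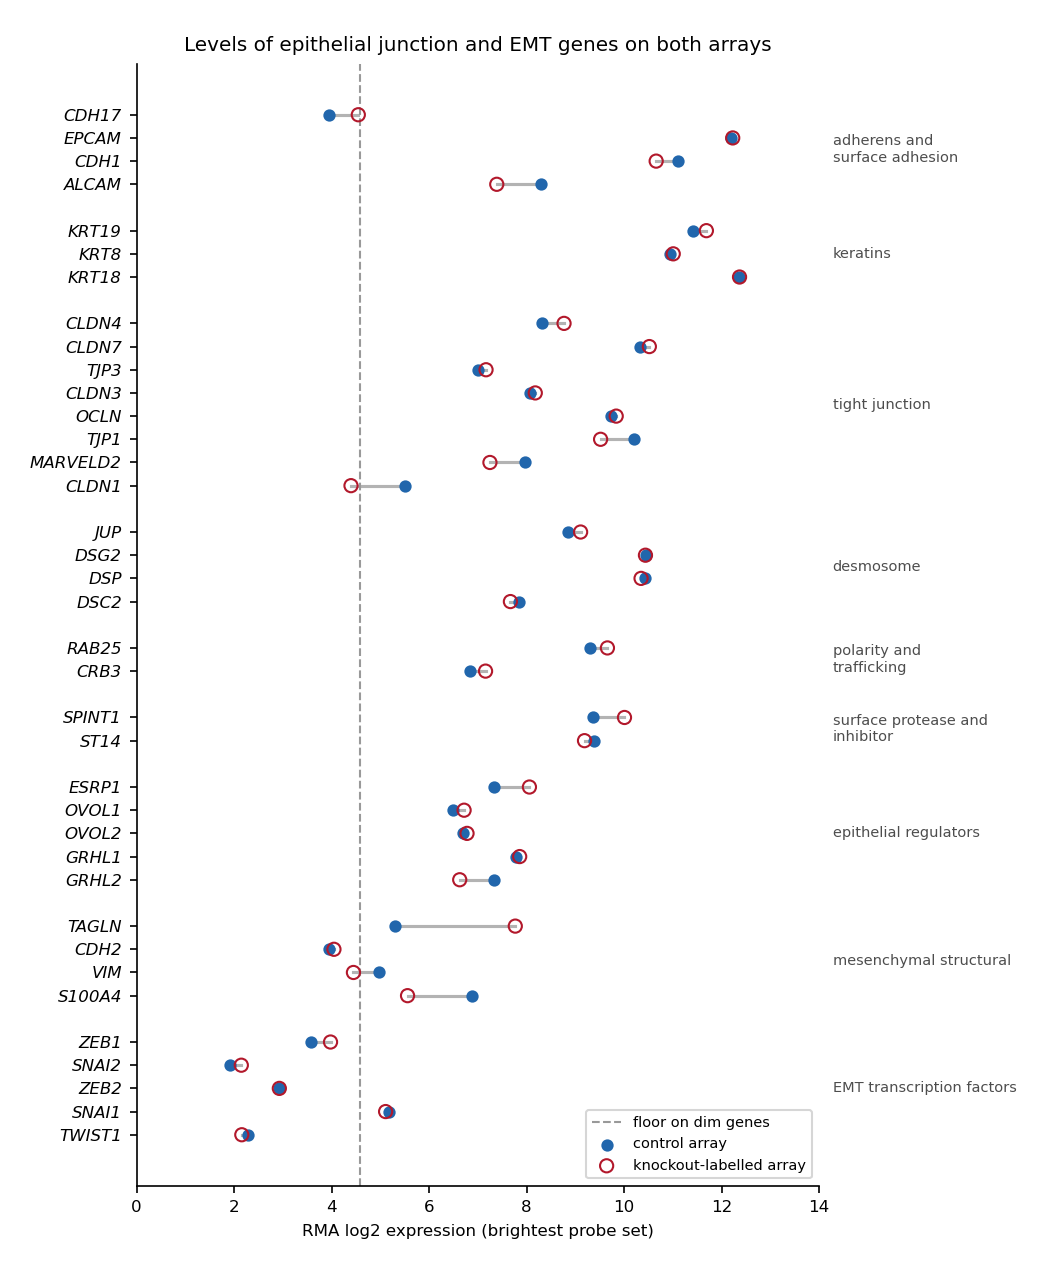
RMA log2 levels (x axis) of the 37 genes, grouped by role, on the control array (filled blue) and the knockout-labelled array (open red); the dashed line is the floor of 4.59. Most pairs of points lie close together, while TAGLN moves from 5.30 to 7.77, S100A4 from 6.89 to 5.56 and CLDN1 from 5.50 to 4.40; levels of different genes are not comparable.

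SNAI and ZEB proteins bind the E-box CAGGTG, which reads CACCTG on the opposite strand. The 250 bases before the start site were searched on both strands in the RefSeq promoter table (GRCh38.p14), which held windows for 23 of the 37 genes. It held none for CDH1, EPCAM or TAGLN, so these were not searched. A match was found in 13 of 27 windows of epithelial genes (48.1%), in 3 of 12 windows of the other genes (25%) and in 17.5% of all 35116 windows. Most of those 12 windows belong to ZEB1. Counted by gene, a match was found in 12 of 18 epithelial genes (66.7%), 2 of 5 others (40%) and 20.6% of all. Windows of 1 gene can overlap, and base composition was not matched, so these shares are a description. Shown here are 4 genes that were lower on the knockout-labelled array and have a single window, and the polarity genes CRB3 and RAB25, which were not. Sequences run 5′ to 3′ on the gene's strand, capitals mark the E-box, and the last base printed is the one before the start site.
CLDN1, chr3:190322447-190322696, minus strand: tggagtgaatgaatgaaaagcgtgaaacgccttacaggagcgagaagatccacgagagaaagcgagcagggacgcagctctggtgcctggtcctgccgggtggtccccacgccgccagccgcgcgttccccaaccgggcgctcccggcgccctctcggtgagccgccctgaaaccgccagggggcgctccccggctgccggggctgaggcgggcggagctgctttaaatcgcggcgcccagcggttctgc
MARVELD2, chr5:69414866-69415115, plus strand: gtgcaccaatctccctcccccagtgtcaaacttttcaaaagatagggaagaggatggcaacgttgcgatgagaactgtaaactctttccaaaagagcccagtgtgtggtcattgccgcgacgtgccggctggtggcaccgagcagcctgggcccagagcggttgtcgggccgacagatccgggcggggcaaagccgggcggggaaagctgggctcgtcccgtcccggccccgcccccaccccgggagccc
ALCAM, chr3:105366659-105366908, plus strand: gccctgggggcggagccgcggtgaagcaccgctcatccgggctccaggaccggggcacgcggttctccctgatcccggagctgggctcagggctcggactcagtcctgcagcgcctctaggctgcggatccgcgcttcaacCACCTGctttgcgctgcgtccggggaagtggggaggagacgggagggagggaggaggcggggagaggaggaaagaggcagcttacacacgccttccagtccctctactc
S100A4, chr1:153545807-153546056, minus strand: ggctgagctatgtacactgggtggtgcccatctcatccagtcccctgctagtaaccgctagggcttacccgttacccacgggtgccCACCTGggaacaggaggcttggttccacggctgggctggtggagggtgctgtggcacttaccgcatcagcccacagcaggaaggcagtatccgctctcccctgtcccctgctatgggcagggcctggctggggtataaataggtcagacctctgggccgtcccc
CRB3, chr19:6464021-6464270, plus strand: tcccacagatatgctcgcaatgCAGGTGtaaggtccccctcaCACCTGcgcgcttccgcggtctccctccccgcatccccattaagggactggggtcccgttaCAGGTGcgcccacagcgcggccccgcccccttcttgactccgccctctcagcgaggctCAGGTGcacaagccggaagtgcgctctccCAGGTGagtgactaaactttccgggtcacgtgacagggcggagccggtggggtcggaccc
RAB25, chr1:156060910-156061159, plus strand: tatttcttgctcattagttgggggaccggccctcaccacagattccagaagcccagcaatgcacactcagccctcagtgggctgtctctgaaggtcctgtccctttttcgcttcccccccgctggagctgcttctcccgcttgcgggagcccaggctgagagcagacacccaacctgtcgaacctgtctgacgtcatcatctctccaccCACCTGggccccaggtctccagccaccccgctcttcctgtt

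CRB3 held 5 matches, more than any other member's window, and ALCAM, S100A4 and RAB25 held 1 each. The windows of CLDN1 and MARVELD2, both lower tight junction genes, held no match. A second start site of CLDN7 held 4, and the desmosomal genes DSP and DSG2 held 2 each. So did 1 window of the desmosomal gene JUP and 1 of the EMT factor ZEB1. A match is not a shown binding site.

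The EMT factors were dim on both arrays. ZEB1 read 3.98 and 3.57, and its 4 probe sets were all under the floor, with differences from -0.42 to 0.41 and no common direction. ZEB2 read 2.93 on both, and none of its 5 probe sets reached the floor. SNAI2 (2.15 and 1.92) and TWIST1 (2.16 and 2.28) were also under it, so these 4 genes were not compared. SNAI1, the zinc finger repressor of E-cadherin, was the only factor above the floor, at 5.11 and 5.17, a difference of -0.06 within its spread of 0.257. A level under the floor is a bound on the array, not an absence of the transcript.

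The 4 structural mesenchymal genes went different ways. TAGLN, which encodes the actin-binding protein transgelin, read 7.77 and 5.30, 5.57-fold higher (2.48, spread 0.395). Its next probe set read 7.64 and 4.61, a difference of 3.03. The dimmest, at 5.68 and 5.42, differed by 0.26 and is the only one of the 3 not marked as able to match several transcripts, so the size depends on the probe set. S100A4, a calcium-binding protein associated with motile cells, read 5.56 and 6.89, 2.51-fold lower (-1.33, spread 0.395), in its only probe set. VIM, the intermediate filament vimentin, read 4.45 and 4.97, which is at least 1.30-fold lower when the dim value is raised to the floor. The second VIM probe set read 2.06 and 2.11, under the floor on both arrays, so this rests on 1 probe set. CDH2, or N-cadherin, stayed under the floor in both probe sets (4.05 and 3.94 in the brighter). TAGLN was thus higher while S100A4 was lower, and of the classical EMT markers CDH2 was under the floor in both samples and VIM above it in the control alone.

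Smooth muscle markers, which accompany TAGLN in tissue, are given beside it. Of 6 measured, 4 were above the floor, none past 2-fold, with differences from 0.04 to 0.22, and DES and CNN1 were under the floor on both arrays. Their linear levels summed to 162 (knockout-labelled) and 151 (control). Fibroblast markers summed to 262 and 228 with 3 of 9 above the floor, leukocyte markers to 264 and 249 with 4 of 10, and endothelial markers to 148 and 136 with 2 of 8. PTPRC, CDH5 and COL3A1 were among the markers under the floor in both samples. On at least 1 array, CD14 (6.54 and 6.51), CD3D, CD3E and ITGAM of the leukocyte list were above the floor. So were PECAM1 and TEK of the endothelial list and DCN and THY1 of the fibroblast list. The collagen COL1A1 was above it, at 7.12 and 6.87 (0.25), while its next probe set read 3.17 and 5.64, so its probe sets differed in direction. Colon epithelial markers had 10 of 12 above the floor, with CDH17 and LGALS4 under it. TSPAN8, a tetraspanin of this list, read 6.17 and 5.16, 2.01-fold higher (1.01).

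Among adhesion molecules of the lateral membrane, E-cadherin and ALCAM were lower and EPCAM was level. CDH1, which encodes E-cadherin, read 10.66 and 11.11, 1.36-fold lower (-0.45, spread 0.255). Its second probe set differed by -0.51. ALCAM, an immunoglobulin-type adhesion molecule, read 7.39 and 8.29, 1.87-fold lower (-0.90, spread 0.388). The next ALCAM probe set differed by -0.79, and the third, under the floor on both arrays, by 0.30. EPCAM, the epithelial cell adhesion molecule, read 12.23 and 12.19, within its spread. CDH17, the intestinal LI-cadherin, was just under the floor, at 4.55 and 3.95, and was not compared. P-cadherin, encoded by CDH3 directly beside CDH1 in the genome, differed by 0.13 where CDH1 differed by -0.45.

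The simple-epithelium keratins were level or slightly higher. KRT8 read 11.01 and 10.94 on the knockout-labelled and control arrays, and its filament partner KRT18, the neighbouring gene, read 12.37 and 12.35. Both differences, 0.08 and 0.02, were inside the spread of 0.255, and both turned to -0.01 and -0.07 when the arrays were scaled on ribosomal protein genes. KRT19 read 11.69 and 11.42, higher by 0.27, just beyond that spread, and by 0.30 in its other probe set. The probe sets of KRT8 and KRT18 are marked as able to match related sequences, so signal from keratin pseudogenes cannot be told apart.

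The tight junction genes divided into claudins that were level or higher and 3 genes that were lower. CLDN1 read 4.40 on the knockout-labelled array against 5.50 in the control (-1.09). Raised to the floor, the dim value makes it at least 1.88-fold lower, and the other probe set read 3.18 and 4.61. MARVELD2, or tricellulin, which seals the points where 3 cells meet, read 7.25 and 7.96, 1.64-fold lower (-0.72, spread 0.412), with -0.85 in its second probe set. TJP1, the scaffold ZO-1, read 9.52 and 10.21, 1.61-fold lower (-0.69, spread 0.255), but its dimmer probe set differed by -0.15, inside that spread.

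The other claudins of the set, occludin and ZO-3 were level or higher. CLDN4, a barrier claudin, read 8.77 and 8.32 on the knockout-labelled and control arrays, 1.36-fold higher (0.44, spread 0.388), with 0.06 in a dimmer probe set. CLDN3, its neighbour in the genome, read 8.18 and 8.07 (0.11), and 8.05 and 7.56 in a probe set of nearly the same brightness (0.48). CLDN7 read 10.52 and 10.32 (0.20), inside the spread. OCLN, which encodes occludin, read 9.84 and 9.73 (0.11), and its 4 probe sets lay between -0.10 and 0.16. The gene next to OCLN is MARVELD2, so these neighbours of the same protein family differed by 0.11 and -0.72. TJP3, or ZO-3, read 7.17 and 7.0 (0.17), with 0.13 in its other probe set, both inside the spread of 0.437.

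Desmosomal genes were all inside their spread in the brightest probe set. DSP, the plakin that ties desmosomes to keratin, read 10.35 and 10.44 (-0.08). The desmosomal cadherin DSG2 read 10.44 and 10.45 (-0.01), and its second probe set differed by -0.15. DSC2, the partner cadherin, read 7.67 and 7.84 (-0.17, spread 0.412). Its other probe sets above the floor differed by -0.29 and -0.75, the latter beyond the spread of 0.412. The dimmer ones thus gave larger differences in the same direction. JUP, or plakoglobin, shared by desmosomes and adherens junctions, read 9.11 and 8.85 (0.26, spread 0.366).

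The apical polarity gene CRB3 and the trafficking gene RAB25 were both a little higher. CRB3, the Crumbs protein of most epithelia, read 7.16 and 6.84, 1.25-fold higher (0.32, spread 0.437). RAB25, a small GTPase of apical recycling endosomes, read 9.66 and 9.30, 1.28-fold higher (0.36, spread 0.366). Neither was beyond its spread, and each rests on 1 probe set.

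Matriptase was level, while its inhibitor was higher in 1 of 2 probe sets. ST14, the membrane serine protease matriptase, read 9.19 and 9.38 (-0.19, spread 0.366). SPINT1, the Kunitz-type inhibitor HAI-1, read 10.01 and 9.37, 1.56-fold higher (0.64, spread 0.366), while its dimmer probe set read 6.14 and 6.21. PRSS8 is prostasin, the membrane-anchored protease of the same cascade, and is no member of the set. It read 8.42 and 7.22, 2.29-fold higher (1.20), in its only probe set. Prostasin and HAI-1 were therefore higher where matriptase itself was level, with the value of HAI-1 resting on the brighter probe set.

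The epithelial regulators held opposite differences of similar size. ESRP1, the splicing regulator that maintains epithelial isoforms, read 8.06 and 7.34, 1.65-fold higher (0.72, spread 0.412). Its second probe set read 8.01 and 7.24, nearly the same difference (0.77). GRHL2, a grainyhead factor that activates CDH1 and claudin genes, read 6.63 and 7.34, 1.64-fold lower (-0.71, spread 0.437), in a single probe set. Its paralog GRHL1 read 7.86 and 7.78 (0.08), and the zinc finger repressors of EMT factors OVOL1 (6.72 and 6.5) and OVOL2 (6.78 and 6.69) differed by 0.22 and 0.09. These 3 were inside their spread in every probe set above the floor.

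**Figure D2:**
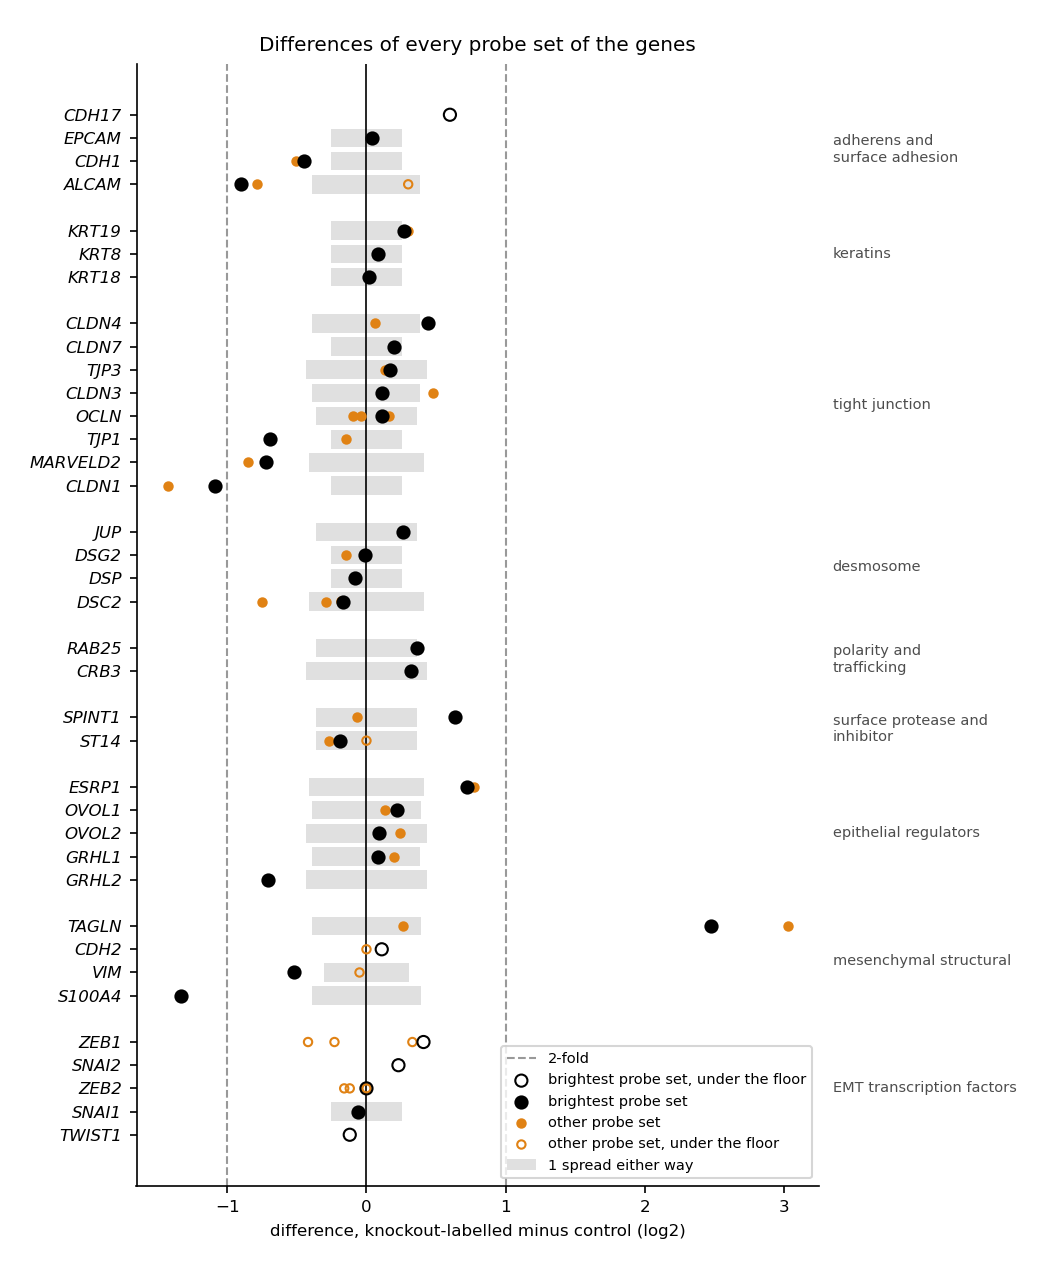
Difference of each probe set, knockout-labelled minus control (log2, x axis), for the 37 genes by role; large black points are the brightest probe set, small orange points the others, open points lie under the floor on both arrays, grey bars reach 1 spread either way and dashed lines mark 2-fold. Probe sets of CDH1, MARVELD2, CLDN1 and ESRP1 lie close together, while those of TAGLN run from 0.26 to 3.03.

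Of 19 genes of the set for which 2 or more probe sets passed the floor, 17 (89.5%) had all of them on the same side of 0, against 61.1% of all 6297 such genes. The exceptions were OCLN and SPINT1. Probe sets of 1 gene read the same RNA sample, so they check the measurement and not the difference between cultures.

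**Figure D3:**
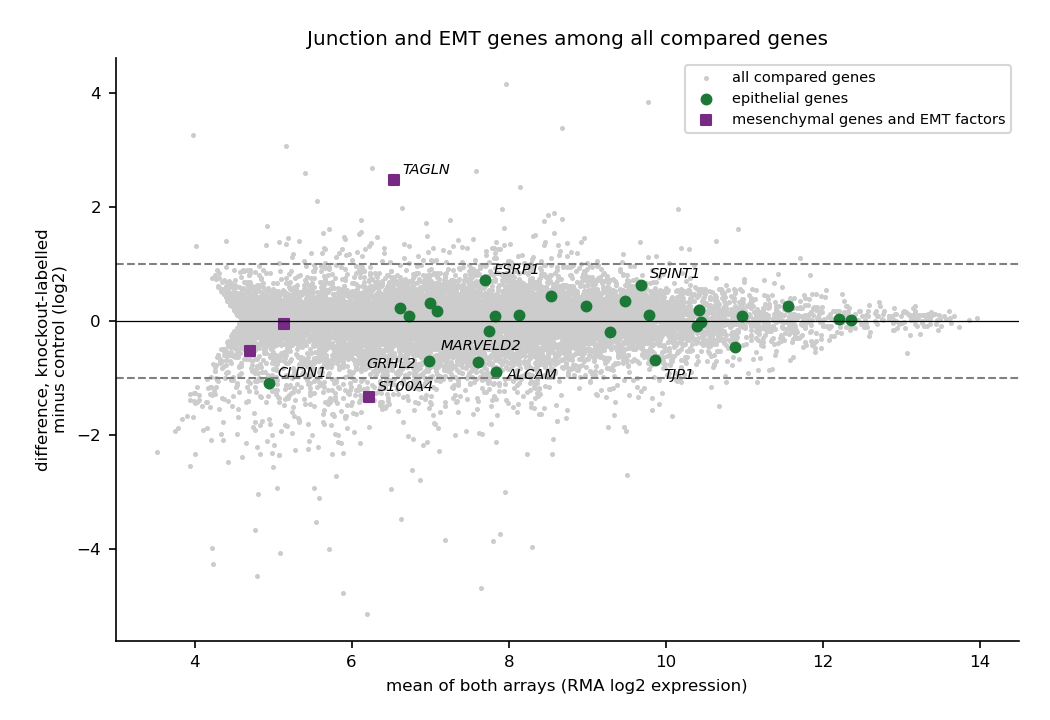
Difference (log2, y axis) against the mean of both arrays (RMA log2, x axis) for all 12841 compared genes (grey), the 27 compared epithelial genes (green circles) and the 4 compared mesenchymal genes and EMT factors (purple squares); dashed lines mark 2-fold. TAGLN at 2.48 lies outside the main cloud, and S100A4 at -1.33 and CLDN1 at -1.09, whose dimmer value is under the floor, lie just past the lower line. The brightest epithelial genes, KRT18 and EPCAM, lie near 0, and the bright CDH1 lies at -0.45.

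Related genes outside the set were taken from 9 lists of 176 genes. Of these, 162 had a probe set annotated to them alone and 113 were compared. Differences past 2-fold were found upward in 2 (1.77%, against 1.05% of all compared genes) and downward in 6 (5.31%, against 3.79%). Of those 6, 4 had a knockout-labelled value under the floor, and 3 (NECTIN3, CLDN2 and EHF) still reach 2-fold when such values are raised to it. The lists were written with earlier results of these data known, and both shares lie near the background.

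CLDN2, CLDN23 and a nectin were lower, while CLDN15 was higher. CLDN2, the claudin of leaky, cation-conducting junctions, read 5.69 and 7.19, 2.82-fold lower (-1.5, spread 0.395). CLDN23 read 3.35 and 4.84 and was at least 1.19-fold lower, with both other probe sets under the floor. In the other direction, CLDN15 read 7.47 and 6.87 (0.60, spread 0.437), with 0.36 in its second probe set. CLDN11, CLDN12 and CLDN16 were inside their spread. The median of 12 other tight junction genes was -0.18, with 4 above 0 (33.3%, against 52.9% of all compared genes) and 8 below (45.1% of all). Among 15 adherens junction genes 12 were above 0 (80%, against 52.9% of all) and the median was 0.09. In that list NECTIN3, an adhesion molecule of these junctions, read 2.11 and 6.37, at least 3.43-fold lower, and its second probe set read 2.46 and 5.80. PTPRF, the receptor phosphatase LAR, differed most upward, at 9.53 and 8.58 (0.95), and its other 3 probe sets differed by 0.30 to 0.59.

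Epithelial transcription factors beyond the set included EHF and GRHL3 among the lower genes. EHF, an ETS factor of epithelia, read 7.31 and 8.90, 3.01-fold lower (-1.59, spread 0.388), and its 6 probe sets were all lower, 4 of them with a knockout-labelled value under the floor. GRHL3, the remaining grainyhead factor, read 3.63 and 4.86, at least 1.21-fold lower. ELF3, a close relative of EHF picked out after its values were seen, read 6.11 and 6.91 (-0.80), and its other probe sets had knockout-labelled values under the floor (4.08 and 5.34, and 3.45 and 4.94). The list as a whole, which also holds surface proteins, did not share this direction. Of its 16 compared genes 9 were above 0 (56.2%, against 52.9% of all compared genes) and the median was 0.11. Of its other compared transcription factors, CDX2 was higher, at 6.91 and 6.27 (0.64, spread 0.395), with 0.75 in its second probe set. KLF5 (0.30), KLF4 (0.19), CDX1 (0.14) and FOXA1 (-0.11) were inside their spread. These were also picked out after their values were seen.

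The polarity and trafficking list had 15 of 20 compared genes above 0 (75.0%, against 52.9% of all) and a median of 0.26, with no gene past 2-fold. PRKCZ, an atypical protein kinase C of the apical complex, read 8.74 and 8.03 (0.70). DLG3, a membrane scaffold, read 7.51 and 6.84 (0.67), but its other probe sets lay between -0.34 and 0.11. Desmosome and plakin genes had a median of -0.11 over 9, led by DST (-0.56) and the plakophilin PKP2 (-0.55, and -0.38 in its other probe set). In the keratin list KRT80 read 4.09 and 5.24, at least 1.57-fold lower with the dim value raised to the floor, and KRT5 differed by 0.23.

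Other mesenchymal genes gave no difference past 2-fold in the brightest probe set of 12 compared genes of 30 listed. Dimmer probe sets of COL1A1 (3.17 and 5.64) and TGFB2 did. Their median was 0.15, and 17 of the 29 with a probe set were under the floor. TGFB2, a TGF-beta ligand, differed most, at 5.11 and 5.53 (-0.41), and its second probe set read 3.74 and 4.75 (-1.01). Its remaining probe sets, under the floor on both arrays, were also lower. MMP2, a matrix metalloproteinase, came next at 5.08 and 4.75 (0.33). The list beside TAGLN held actin-binding genes, targets of serum response factor and that factor itself. Its median was 0.09 over 17, with 10 above 0 (58.8%, against 52.9% of all compared genes). None was past 2-fold in the brightest probe set. CALD1, which encodes caldesmon and is named in addition to the 2 largest differences of the list, differed by -0.53 there. Its knockout-labelled value, 4.13, was under the floor, so it was at least 1.05-fold lower, and 1 of its dimmer probe sets read 2.55 and 5.22. The paralog TAGLN2 was lower, at 9.02 and 9.76 (-0.74), with -0.73 in its second probe set. ANXA1, which encodes annexin A1, read 10.27 and 11.24 (-0.97), against 0.15 in a dim probe set.

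On chromosome 1, 6 compared S100 genes had at most 4 coding genes between them and S100A4. Of these 6, 4 were beyond their spread, all of them lower like S100A4. In either direction, 34.8% of all compared genes were beyond their spread, and the share lower alone is not given. The 4 neighbours were S100A14 (7.91 and 8.80, -0.89), S100A16 (9.36 and 9.86, -0.50), S100A13 (9.05 and 9.49, -0.44, and -0.18 in its dimmer probe set) and S100A2. The adjacent S100A3 differed by 0.00 and S100A6 by 0.11, and these neighbours other than S100A2 are named for their position after their values were seen. S100A2 read 5.99 and 6.89 (-0.90). S100A10, the annexin A2 partner, read 12.27 and 11.16, 2.16-fold higher (1.11), with 0.34 in its dimmer probe set. S100A11 differed by -0.01, and neither of these 2 was among the neighbours counted. Over 8 compared S100 genes other than S100A4 the median was -0.22, with 5 below 0 (45.1% of all compared genes were).

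**Figure D4:**
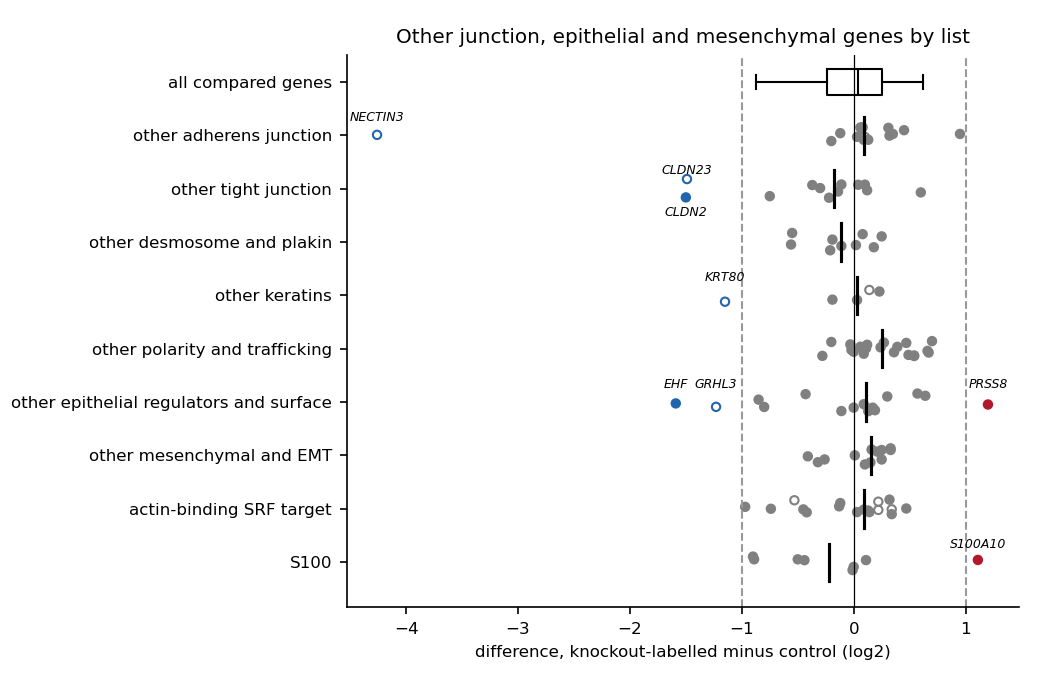
Differences (log2, x axis) of compared genes in 9 lists of related genes outside the set, 1 point per gene with vertical position within a row carrying no meaning; open points have 1 value under the floor and are no measured fold, black ticks are list medians, dashed lines mark 2-fold, and the box shows the quartiles of all 12841 compared genes with whiskers at the percentiles 5 and 95. The named points past 2-fold are 6 lower genes, of which NECTIN3, CLDN23, KRT80 and GRHL3 are open, and 2 higher genes, PRSS8 at 1.20 and S100A10 at 1.11.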

How the data were processed

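Total RNA of 2 HCT15 samples, 1 per group, was measured on 1 Affymetrix array each after biotin labelling, per the labels' protocols. The deposited log2 values were made by the authors with RMA (version not given), per the submitters' processing notes. RMA includes background subtraction, quantile normalisation and probe set summary, so differences are relative to the other genes and are compressed for dim ones.

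Of 54613 non-control probe sets, 41091 carried 1 gene symbol, 1801 several and 11721 none, and only the first gave gene values. A gene took its brightest probe set and was compared above the floor of 4.59. Spreads came from 10 bins of mean level. Called means a difference of at least 2-fold, with no test. All genes of the set are named, and of each other list the genes past 2-fold or, where fewer than 2 were, the 2 with the largest difference. Some further genes of the lists are named in addition. The RefSeq gene table (GRCh38.p14) gave gene order. The members and lists were chosen with earlier results of these data known. Python 3.11.15 with pandas 2.3.3 and statsmodels 0.14.6 was used, and the procedure was tested on simulated data. Alternatives covered the floor, the probe sets, scaling, the intensity trend (loess, span 0.3), an offset of 64 linear units and thresholds of 1.5-fold and 3-fold.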

Additional observations from a re-analysis of the deposited data

How the results depend on the processing

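No paired analysis was possible because each group has 1 array, and no array could be left out. A value was taken as moved when it shifted by more than the spread, 0.354 over all compared genes for medians, and a count when it changed by over 1.5 times. The count of members past 2-fold higher, 1, became 0 without probe sets marked as matching several transcripts (suffixes _s_at and _x_at), where TAGLN differed by 0.26 and 23 members were left. It was 3 at a 1.5-fold threshold. The count past 2-fold lower, 2, became 1 with the floor at the 75th percentile, which left out CLDN1, and 1 without the marked probe sets, which left out S100A4. It was 0 with 64 linear units added, 6 at 1.5-fold and 0 at 3-fold. The epithelial median stayed between -0.01 and 0.12 under the alternatives other than spike-in scaling. The mesenchymal and EMT factor median of -0.29 became 0.57 with the higher floor and 0.10 without the marked probe sets, each over fewer genes. For the structural mesenchymal genes, -0.52 became 0.57 with the higher floor, 0.30 with averaged probe sets, 0.26 without the marked ones and -0.15 with the offset. The adhesion median of -0.45 became -0.90 without the marked probe sets, where ALCAM alone was left.

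Scaling on the poly-A spike-ins raised every difference by 1.19, so that 22 members were past 2-fold higher and 0 lower, and 9137 of all genes were higher and 44 lower in place of 135 and 487. The medians became 1.27 for epithelial and 0.90 for mesenchymal and EMT factor genes. By role they were 0.74 for adhesion, 1.26 for keratins, 1.30 for tight junction, 1.14 for desmosome, 1.53 for polarity and trafficking, 1.41 for protease and inhibitor, 1.28 for regulators and 0.66 for structural mesenchymal genes. CLDN1 turned to 0.09 and KRT80 to 0.04. Of the related genes outside the set 80 were then past 2-fold higher and 1 lower, in place of 2 and 6. Averaging probe sets left 1 higher, and the higher floor left 2 lower. Signal limits the dim genes: 6 of 37 were not compared and CLDN1 and VIM have only bounds.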
